A study of Mus musculus with 4 samples.

Results

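The RNA of blood Ly6Clo monocytes from RBP-J-deficient mice was compared with that of blood Ly6Chi monocytes from control mice, to find which features of Ly6Chi cells the deficient Ly6Clo cells matched and which they lacked. The pair is 2 of the 4 libraries of the study. It was taken from the deposited table as the rows that set these 2 libraries side by side, and 6409 of the 23995 gene symbols passed the filter, a mean FPKM over the pair of 5 or more. FPKM counts sequenced fragments per transcript length and per mapped fragment of the library. Control mice were *Rbpj*+/+ *Lyz2*cre/cre and deficient mice were *Rbpj*fl/fl *Lyz2*cre/cre, so that every mouse carried Cre recombinase at both *Lyz2* alleles, a locus that drives it in cells of the myeloid lineage and not in monocytes alone. The deposited genotype labels read Lyz2-Cre and RBP-Jfl/fl Lyz2-Cre, with the control titled WT. The other 2 libraries were control Ly6Clo and RBP-J-deficient Ly6Chi monocytes. Mice were adults matched for age and gender, no treatment is named, and whether animals were pooled was not given in the sources used here.

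The compared libraries differ in subset and in genotype at once, and these cannot be told apart in this pair. Each group holds 1 library, so no difference below has a replicate check, no test was made and no error can be given. In RNA of sorted cells, a smaller share of cells of one kind and less RNA per cell cannot be told apart either.

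Ly6Chi, or classical, monocytes leave the bone marrow through the chemokine receptor CCR2 and are recruited to inflamed tissue. In blood they can convert into Ly6Clo, or nonclassical, monocytes, which patrol the vessel wall and depend on the nuclear receptor NR4A1. RBP-J is the DNA-binding protein of canonical Notch signalling: a Notch receptor cut after ligand binding releases its intracellular domain, which binds RBP-J together with a Mastermind coactivator and switches on targets such as *Hes1*.

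FPKM values summed to between 711533 and 885648 per library, highest in RBP-J-deficient Ly6Clo monocytes, and read depth is unknown. That library stood apart from the rest. Over the 4 libraries 6400 genes averaged an FPKM of 5 or more, and of these 291 were at least 2-fold above each other library in RBP-J-deficient Ly6Clo monocytes and 326 were at least 2-fold below each, whereas the other 3 libraries had 8 to 65 such genes above and 16 to 103 below. The ratio of the compared pair also moved with base composition. With genes in 10 groups of rising GC content, the median log2 ratio was 0.62 in the lowest group and -0.75 in the highest, with a Spearman rho of -0.37 over 6352 genes of the same 2 libraries. The part of GC content in the results was not tested, and values after subtraction of its trend are given where they move a gene across a threshold. Estimates of 4 genes, including *Actb*, were marked as failed in this pair and left out. *Actb* is listed at 0 in both deficient libraries, and a gene listed at 0 was not taken as absent.

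**Figure D1:**
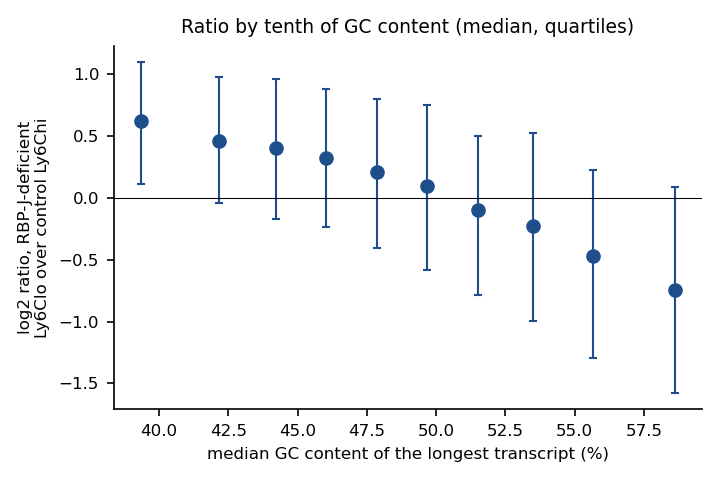
Log2 ratio of (FPKM + 1), RBP-J-deficient Ly6Clo over control Ly6Chi monocytes (vertical axis), against the median GC content in percent of the longest transcript (horizontal axis), for 10 groups of 635 or 636 genes. Points are medians and bars run from the lower to the upper quartile across genes, and the median goes from 0.62 in the lowest to -0.75 in the highest group.

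Ratios are given as the log2 of (FPKM + 1) in RBP-J-deficient Ly6Clo over control Ly6Chi monocytes, a scale that understates differences of low genes. Positive values are higher in the deficient Ly6Clo cells. *Rbpj* itself (GRCm38 chromosome 5, 53466152 to 53657362, on the plus strand) was at an FPKM of 2.43 in RBP-J-deficient Ly6Clo and 14.4 in control Ly6Chi monocytes, a log2 ratio of -2.17. It was 8.30 in control Ly6Clo and 2.85 in RBP-J-deficient Ly6Chi monocytes, so both deficient libraries lay below both controls. *Lyz2*, which carries the Cre, had 134 in deficient Ly6Clo and 84.8 in control Ly6Chi monocytes.

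Genes that mark any monocyte were present on both sides at levels within 2-fold. *Csf1r*, the receptor for the monocyte growth factor CSF1, had 158 in the deficient Ly6Clo and 307 in the control Ly6Chi library (log2 ratio -0.95), a difference that passed 2-fold when rescaled to TPM (-1.27) and was -0.46 after subtraction of the GC trend. *Itgam*, which encodes CD11b, had 51.5 and 66.2 in the same order. *Cd14*, a coreceptor for lipopolysaccharide, had 148 and 205, and *Emr1*, which encodes F4/80, had 91.7 and 70.0.

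Of the 6409 expressed genes, 110 were higher in RBP-J-deficient Ly6Clo monocytes by a fold of 5.7 or more, 1.72% of those compared, and 190 were lower at a fold of 0.2 or less, 2.96%. These folds are those of the study's methods. At 2-fold, 1134 genes (17.7%) were higher and 1071 (16.7%) were lower. The median of all genes was 0.12. After subtraction of the GC trend the larger folds held 112 higher and 120 lower genes, and after rescaling to TPM the 2-fold counts were 754 higher and 1496 lower, since TPM shifts log2 ratios by -0.32 before the pseudocount is added. The shares are the background against which gene lists are read below.

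**Figure D2:**
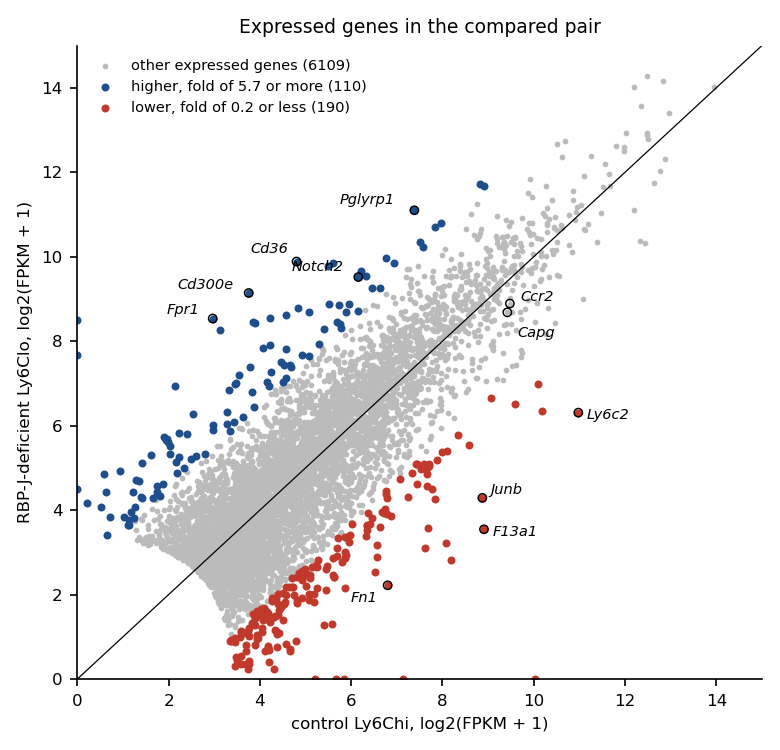
Level of 6409 expressed genes as log2(FPKM + 1) in control Ly6Chi (horizontal axis) and RBP-J-deficient Ly6Clo monocytes (vertical axis), 1 library each. Blue points mark the 110 genes at a fold of 5.7 or more and red points the 190 at 0.2 or less. *Ccr2* and *Capg* lie close to the line of equal level and *Ly6c2* and *F13a1* far below it.

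Markers of Ly6Chi monocytes split into matched and lacking. *Ccr2* (chromosome 9, 124101950 to 124113557, plus strand), which encodes the receptor for bone marrow exit, was at 474 in RBP-J-deficient Ly6Clo and 712 in control Ly6Chi monocytes. Its level was 624 in RBP-J-deficient Ly6Chi monocytes and 59.2 in control Ly6Clo monocytes. The deficient Ly6Clo library thus held *Ccr2* close to both Ly6Chi libraries, 66.6% of the control Ly6Chi level, with control Ly6Clo monocytes far below. The log2 ratio was -0.59, -0.90 in TPM and -1.05 after subtraction of the GC trend, the last of which is just past 2-fold.

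*Capg*, which encodes an actin filament capping protein, lies on chromosome 6 from 72544391 to 72562983, plus strand. It had 409.9 in RBP-J-deficient Ly6Clo and 684 in control Ly6Chi monocytes, with 701 in RBP-J-deficient Ly6Chi and 25.6 in control Ly6Clo monocytes. Here too the deficient Ly6Clo library sided with the Ly6Chi libraries. The log2 ratio was -0.74, and it was -1.05 in TPM and -0.01 after subtraction of the GC trend.

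*Ly6c2* (chromosome 15, 75108158 to 75111970, minus strand) encodes an antigen by which the subsets are sorted, so its difference follows from the gate and is given as a check of the labels. It had 78.3 in RBP-J-deficient Ly6Clo, 2013 in control Ly6Chi, 1594 in RBP-J-deficient Ly6Chi and 10.9 in control Ly6Clo monocytes. The deficient Ly6Clo library was 25.4-fold below control Ly6Chi monocytes, and its level was above that of control Ly6Clo monocytes. *Ly6c1*, a near-identical neighbour whose reads may be split with *Ly6c2*, had 4.76 and 91.0 in the compared pair.

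Other genes fixed as Ly6Chi markers were lower. *F13a1*, which encodes the A subunit of coagulation factor XIII (chromosome 13, 36867178 to 37050244, minus strand), had 10.7 in deficient Ly6Clo and 479.8 in control Ly6Chi monocytes, 41.2-fold lower, with 0.611 in control Ly6Clo and 283 in RBP-J-deficient Ly6Chi monocytes. *Chil3*, a secreted chitinase-like protein, had 79.9 and 1153 in the compared pair, and *Vcan*, the proteoglycan versican, had 0.373 and 10.2. *Plac8* had 1286 and 5529, and at 1959 control Ly6Clo monocytes were above the deficient ones. For *F13a1*, *Chil3* and *Vcan* the deficient Ly6Clo level lay nearer to control Ly6Clo than to either Ly6Chi library, in contrast to *Ccr2* and *Capg*.

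**Figure D3:**
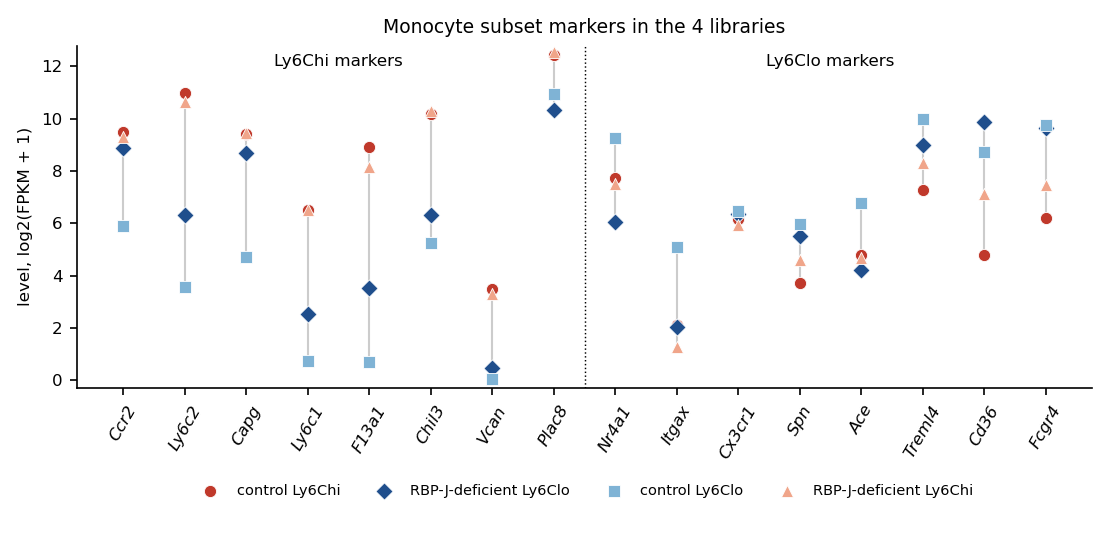
Level as log2(FPKM + 1) (vertical axis) of 8 Ly6Chi and 8 Ly6Clo markers (horizontal axis) in the 4 libraries, 1 point per library. Among the Ly6Chi markers the dark blue diamonds of RBP-J-deficient Ly6Clo monocytes sit near the red Ly6Chi points for *Ccr2* and *Capg* and nearer to, or below, the light blue control Ly6Clo squares for the other 6.

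Over the list of classical monocyte markers, 27 of 30 genes were expressed in the pair, 14 were lower at 2-fold, 9 were higher and 4 were within 2-fold, with a median log2 ratio of -1.09. A gene can pass the filter through 1 library alone, which favours differences, and the list median was -0.75 where both libraries had to reach an FPKM of 1. Besides *Ccr2*, those within 2-fold were *Hp*, *Mgst1* and *Mcemp1*. *Hp*, the haemoglobin-binding protein haptoglobin, had 818 in deficient Ly6Clo and 938 in control Ly6Chi monocytes, against 334 in control Ly6Clo monocytes. *Mgst1*, a microsomal glutathione transferase, had 855 and 1002, against 493. *Mcemp1* had 315 and 243, against 117. In each of the 3 genes the deficient Ly6Clo library was closer to control Ly6Chi than to control Ly6Clo monocytes.

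The classical genes lower in the deficient Ly6Clo cells included *Fn1*, which encodes the matrix protein fibronectin (3.66 and 110.3, log2 ratio -4.58), and *Mmp8*, a neutrophil-type collagenase (7.62 and 195). *Cd177*, a surface glycoprotein also found on neutrophils, had 6.04 and 289. The 9 higher genes were led by *Fpr1*, *Clec4b1*, *Ly6a*, *Clec4e* and *Trem3*. Control Ly6Clo monocytes were also above control Ly6Chi monocytes for *Ly6a* (59.7 and 9.01), *Clec4e* (92.9 and 41.2) and *Trem3* (475 and 108). These genes thus did not mark Ly6Chi cells in the control libraries. *Fpr1* (chromosome 17, 17876471 to 17883940, minus strand) encodes a receptor for bacterial formyl peptides and had the largest ratio in the higher direction among genes that passed under FPKM, TPM and GC subtraction, with small RNAs and genes listed at 0 in either library left out. It had 370.2 in RBP-J-deficient Ly6Clo, 6.82 in control Ly6Chi, 59.5 in control Ly6Clo and 67.7 in RBP-J-deficient Ly6Chi monocytes, a log2 ratio of 5.57. *Clec4b1*, a C-type lectin receptor, had 412 in deficient Ly6Clo monocytes against 32.7, 63.0 and 40.2 in the same order of the other libraries. Both genes were therefore above every other library and were no shared feature of Ly6Chi cells.

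The promoters of *Capg* and *Clec4b1* are shown because the 7 bases GTGGGAA, a core to which RBP-J is known to bind, occur in them. Each line gives 30 bases of GRCm38.p6 from the RefSeq promoter table, 5′ to 3′ on the strand of the gene, which is the plus strand for both, with the match in capitals.
Capg, chr6:72549577-72549606: tccgggaacagGTGGGAAcggtgtccccag
Clec4b1, chr6:123049890-123049919: caatttcctctTTCCCACatccttaaatca
The match in *Capg* starts 59 bases upstream of the RefSeq start site and lies on the sense strand, inside the span of the longer gene model of GENCODE. That in *Clec4b1* starts 61 bases upstream and is on the antisense strand, where it reads as the reverse complement. No match stood in the promoters of *Ccr2* or *Ly6c2*, which says only that these letters are not in that window. Promoters ran from 250 bases before to 50 after a start site and were searched on both strands. The motif was present for 7.25% of 27025 genes with a promoter, for 6.76% of 4912 expressed genes, for 8 of 78 genes higher at 5.7-fold and for 10 of 152 lower at 0.2-fold. A match is a description of the sequence and not a site of binding.

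Most markers of nonclassical monocytes were above the Ly6Chi level. Of 32 list members 30 were expressed, 22 were higher than in control Ly6Chi monocytes at 2-fold (the background was 17.7%), 2 were lower and 6 were within 2-fold, with a median log2 ratio of 2.28. *Cd300e*, an activating receptor of myeloid cells, had 564 in deficient Ly6Clo and 12.5 in control Ly6Chi monocytes (log2 ratio 5.39), with 987 in control Ly6Clo monocytes. *Cd36*, a scavenger receptor for oxidised lipids, had 945 and 26.9, above the 426 of control Ly6Clo monocytes. *Fcgr4*, an activating Fc receptor for IgG, had 807 and 73.6, and *Treml4* had 513 and 154. *Spn*, which encodes CD43, had 44.8 and 12.2. For these 5 genes the deficient Ly6Clo library was above both Ly6Chi libraries.

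A smaller group of nonclassical markers stayed near or below the Ly6Chi level. *Itgax*, which encodes the integrin CD11c, had 3.10 in RBP-J-deficient Ly6Clo, 3.36 in control Ly6Chi and 1.45 in RBP-J-deficient Ly6Chi monocytes, against 33.7 in control Ly6Clo monocytes. It was below the filter of the pair, and its log2 ratio was -0.09. *Ace*, angiotensin-converting enzyme, had 17.7, 26.4 and 24.7 in the same libraries, against 109. Both genes were thus at a Ly6Chi level in the deficient Ly6Clo cells. *Itgal*, the integrin alpha chain of LFA-1, had 74.2 in deficient Ly6Clo and 93.6 in control Ly6Chi monocytes, against 209.9 in control Ly6Clo monocytes. *Pou2f2*, a transcription factor, had 13.2 and 12.9, against 30.5. *Cx3cr1*, the fractalkine receptor, had 81.2 and 71.7, but at 88.1 and 60.3 the other 2 libraries were close to it as well, so that its level did not separate the subsets here.

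*Nr4a1*, on which Ly6Clo monocytes depend, was lower in the deficient Ly6Clo than in control Ly6Chi monocytes. It had 65.6 in RBP-J-deficient Ly6Clo, 214 in control Ly6Chi, 182 in RBP-J-deficient Ly6Chi and 618 in control Ly6Clo monocytes. The level in the deficient Ly6Clo library was the lowest of the 4, with a log2 ratio of -1.69 that became -0.97 after subtraction of the GC trend. Flow cytometry and qPCR in the study found *Nr4a1* alike between deficient and control Ly6Clo cells, unlike the values of these single libraries. *Rara*, a retinoic acid receptor and the other lower member, had 6.60 and 20.1 in the compared pair (-1.47, and -0.61 after subtraction).

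Subset genes were also set without either compared library. Genes at least 4-fold apart between RBP-J-deficient Ly6Chi and control Ly6Clo monocytes were read in the compared pair, with which that contrast shares no library. Among 6095 genes that passed the filter in both pairs, 105 (1.72%) were higher in RBP-J-deficient Ly6Chi monocytes, called Ly6Chi-type here, and 42 (0.689%) were lower, called Ly6Clo-type. Of the Ly6Chi-type genes 82 were lower in RBP-J-deficient Ly6Clo than in control Ly6Chi monocytes at 2-fold, or 78.1% against 16.4% of the 6095 genes. Another 19 were within 2-fold and 4 were higher, and the median was -2.06. Of the Ly6Clo-type genes 19 were higher at 2-fold, or 45.2% against 17.3%, 14 were within 2-fold and 9 were lower, with a median of 0.87 that was 1.41 after subtraction of the GC trend.

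The 19 Ly6Chi-type genes within 2-fold were not all at the Ly6Chi level. *Furin*, a protease, had 11.6 in deficient Ly6Clo, 15.5 in control Ly6Chi and 11.5 in control Ly6Clo monocytes, with 50.5 in RBP-J-deficient Ly6Chi monocytes. Beside *Ccr2*, *Rnd3* (log2 ratio -0.80) and *Gpr183* (-0.79) were lower at 2-fold after subtraction of the GC trend, at -1.14 and -1.06, and in TPM, at -1.12 and -1.10. Those with the highest levels included cytoskeletal genes and calcium-binding proteins as well as *Capg* and *Ccr2*. *Vim*, the intermediate filament vimentin, had 446 in RBP-J-deficient Ly6Clo and 416 in control Ly6Chi monocytes, with 113 in control Ly6Clo monocytes. *S100a6*, a calcium-binding protein, had 788 and 979, with 267. *Lgals1*, which encodes galectin-1, had 308 and 319, with 97.0. In these genes the control Ly6Clo library stood alone at the low end.

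Further genes of this group were *Aif1*, a macrophage actin-binding protein also called IBA1, with 234 in deficient Ly6Clo and 212 in control Ly6Chi monocytes, and *C3*, the central complement component, with 61.7 and 67.8. *Il18*, a cytokine of the interleukin-1 family, had 55.6 and 62.3. *Crip1*, a small LIM protein, had 3452 and 6367 (log2 ratio -0.88) and passed 2-fold in TPM (-1.20). *Trem2*, a lipid-sensing receptor, had 24.6 and 47.0 (-0.91), and passed 2-fold in TPM (-1.22). Control Ly6Clo levels of *Aif1*, *C3*, *Il18*, *Crip1* and *Trem2* were 49.4, 18.5, 18.5, 1299 and 7.16.

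The 4 Ly6Chi-type genes that were higher than in control Ly6Chi monocytes were *Erdr1*, *Amd2*, *Gdpd3* and the small nucleolar RNA *Snora81*. *Erdr1* had 121 in RBP-J-deficient Ly6Clo and 35.0 in RBP-J-deficient Ly6Chi monocytes, against 3.38 and 1.61 in control Ly6Chi and control Ly6Clo monocytes. *Amd2*, whose near-identical copies can share reads, had 38.5 and 38.6 in the deficient libraries against 2.08 and 4.82 in the controls. For *Erdr1* and *Amd2* both deficient libraries thus lay above both controls, whichever the subset.

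Of the 14 Ly6Clo-type genes within 2-fold of the Ly6Chi level, the highest, *Hba-a2*, is a haemoglobin gene with a near-identical copy. *Tgm2*, the tissue transglutaminase, had 10.3 in deficient Ly6Clo and 6.04 in control Ly6Chi monocytes, with 53.1 in control Ly6Clo monocytes. *Dusp5*, a phosphatase of ERK, had 6.75 and 3.74, with 41.8. Both were at 1.41 after subtraction of the GC trend, past 2-fold. Of the 9 that were lower, *Hes1* had the highest control Ly6Clo level, 238. *Havcr2*, which encodes the receptor TIM-3, had 5.19 in deficient Ly6Clo, 13.7 in control Ly6Chi and 57.4 in control Ly6Clo monocytes. *Tmem160*, *Emc10*, *H2-Ke6*, *Tbc1d20*, *Sla2* and *1110008F13Rik* did not separate the control subsets at 2-fold. In these genes both deficient libraries lay below both controls, whichever the subset. *Emc10* had 63.3 in control Ly6Chi and 59.6 in control Ly6Clo monocytes, against 12.2 in deficient Ly6Clo and 12.5 in deficient Ly6Chi monocytes.

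**Figure D4:**
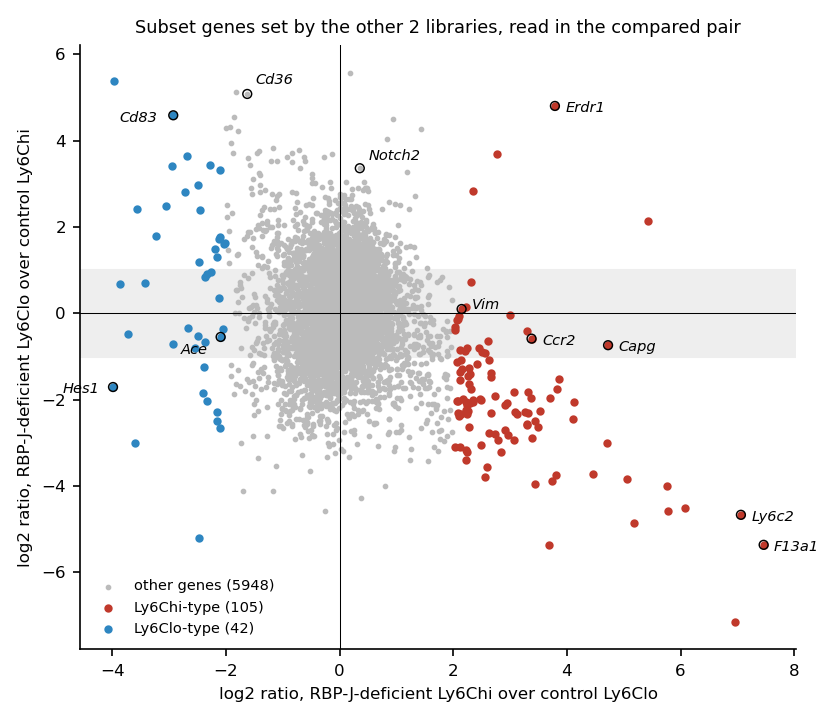
Log2 ratio of (FPKM + 1) in RBP-J-deficient Ly6Chi over control Ly6Clo monocytes (horizontal axis) against that in RBP-J-deficient Ly6Clo over control Ly6Chi monocytes (vertical axis), for 6095 genes and 4 libraries in all. Red points are the 105 Ly6Chi-type and blue points the 42 Ly6Clo-type genes, and the grey band marks 2-fold either way. Most red points lie below the band, whereas *Capg*, *Ccr2* and *Vim* lie in it.

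The Notch pathway was divided. Of 34 genes 14 were expressed, 4 were higher at 2-fold, 6 were lower (5 after subtraction of the GC trend) and 4 were within 2-fold, with a median of 0.07. The lower count includes *Rbpj* itself, the targeted gene, whose direction was set by the design. The receptor *Notch2* (chromosome 3, 98013527 to 98150361, plus strand) had 732 in RBP-J-deficient Ly6Clo and 70.3 in control Ly6Chi monocytes, a log2 ratio of 3.36, with 126 in control Ly6Clo and 161 in RBP-J-deficient Ly6Chi monocytes. The ligand *Jag1* had 20.7 and 0.555 in the compared pair, with 5.64 and 1.07 in the others. *Adam10*, the protease that makes the first cut of an engaged receptor, had 187 and 51.4, and the coactivator *Maml2* had 26.1 and 3.90. In each of these 4 genes the deficient Ly6Clo library was the highest of the 4.

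The lower members included *Ncstn*, which encodes nicastrin, a part of the protease complex that makes the second cut, with 30.9 in deficient Ly6Clo and 79.6 in control Ly6Chi monocytes. The transcriptional target *Hes1* had 11.7 in RBP-J-deficient Ly6Clo, 40.5 in control Ly6Chi, 14.1 in RBP-J-deficient Ly6Chi and 238 in control Ly6Clo monocytes. Both deficient libraries were at a like low level of *Hes1*, below control Ly6Chi monocytes, and the log2 ratio of the pair was -1.71. *Numb*, an inhibitor of Notch, had 2.86 and 8.95. *Nrarp*, another target, was listed at 0 in deficient Ly6Clo and at 0.716 in control Ly6Chi monocytes, against 10.3 in control Ly6Clo monocytes.

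Receptors for chemokines and chemoattractants were more often higher, 6 of 12 expressed members at 2-fold (the background was 17.7%). Another 2 were lower, or 16.7%, which is no more than the background of 16.7%. Beside *Fpr1*, its relative *Fpr2* had 122 in deficient Ly6Clo and 17.3 in control Ly6Chi monocytes. The complement C5a receptor *C5ar1* had 68.2 and 27.0, and *S1pr5*, a sphingosine 1-phosphate receptor of patrolling monocytes, had 54.7 and 18.9. The lower members were *Ccr1* (0.881 and 26.7, log2 ratio -3.88), a receptor for inflammatory chemokines, and *Ptafr*, the receptor for platelet-activating factor (0.230 and 9.95). Both passed the filter through the control Ly6Chi library alone. Of the CC receptors named, *Ccr2* was thus matched and *Ccr1* was not.

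Among S100 proteins and annexins, 6 of 15 expressed members were lower at 2-fold, none was higher (1 after subtraction of the GC trend) and 9 were within 2-fold, with a median of -0.65. *S100a8*, a subunit of calprotectin, had 126 in deficient Ly6Clo and 1085 in control Ly6Chi monocytes, and *S100a9*, its partner, had 22.7 and 202. *S100a4* had 343 and 1407. The annexins *Anxa1* and *Anxa5*, membrane-binding proteins, were near the Ly6Chi level, as was the S100 gene *S100a1*. *Anxa1* had 941 and 1065, *Anxa5* had 647 and 581, and *S100a1* had 227 and 183. Control Ly6Clo monocytes had 370.5, 262 and 49.2 for *Anxa1*, *Anxa5* and *S100a1*, below both libraries of the pair.

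Genes of antigen presentation on MHC class II were lower, 7 of 9 expressed members at 2-fold (the background was 16.7%), with a median of -2.08. *H2-Aa*, an alpha chain, had 90.3 in deficient Ly6Clo and 765 in control Ly6Chi monocytes. *H2-Eb1*, a beta chain, had 35.6 and 236. *H2-DMb1*, which helps load peptides, had 41.4 and 274. Control Ly6Clo monocytes had 260.3, 113 and 77.9 for the same genes, and the deficient Ly6Clo level was the lowest of the 4 libraries in each. The invariant chain *Cd74* (5062 and 7467) and the protease *Ctss* (7795 and 5724) were within 2-fold.

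Interferon-stimulated genes were lower for 14 of 28 expressed members and higher for none (1 after subtraction of the GC trend), with a median of -1.02. *Irf7*, a master regulator of the interferon response, had 23.5 in deficient Ly6Clo and 174 in control Ly6Chi monocytes, against 69.4 in control Ly6Clo monocytes. *Ifit1*, an antiviral RNA-binding protein, had 9.40 and 40.5, against 7.01. *Mx1*, an antiviral GTPase, was within 2-fold (21.1 and 24.8), as was *Ifitm3*, which blocks virus entry (7487 and 5675).

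Immediate early genes and AP-1 subunits were lower for 9 of 19 expressed members, higher for 3 and within 2-fold for 7, with a median of -0.68. After subtraction of the GC trend the counts were even, 5 lower and 5 higher, and the median was -0.30. *Junb* had 18.6 in RBP-J-deficient Ly6Clo, 468 in control Ly6Chi, 146 in control Ly6Clo and 123 in RBP-J-deficient Ly6Chi monocytes, a log2 ratio of -4.58. *Fos*, its dimer partner, had 196 and 844 in the compared pair. *Zfp36*, which destabilises inflammatory mRNAs, had 53.9 and 322. *Dusp1*, a phosphatase of MAP kinases that is also induced early, had 816 and 756, and *Fosl2*, another AP-1 subunit, was higher (26.5 and 7.73).

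Transcription factors of the myeloid lineage differed in both directions, 10 of 26 expressed members lower and 7 higher (7 lower and 8 higher after subtraction of the GC trend). *Cebpd* had 1.42 in deficient Ly6Clo and 41.1 in control Ly6Chi monocytes, a log2 ratio of -4.12. *Spi1*, which encodes PU.1, had 211 and 851, with 903 in control Ly6Clo monocytes, and *Cebpa* had 5.15 and 25.4. *Spi1* and *Cebpa* were lower also after subtraction of the GC trend, at -1.16 and -1.12. *Pparg*, a nuclear receptor for fatty acids, was higher with 373 and 17.6, as were *Tcf7l2*, a factor of Wnt signalling (171 and 22.1), and *Klf4*, which is needed for monocyte formation (94.5 and 24.2). *Cebpb*, a factor of Ly6Clo monocyte survival, had 43.5 and 22.8, a log2 ratio of 0.90 that was 1.99 after subtraction of the GC trend. *Irf1* (69.1 and 69.2) and *Zeb2* (22.6 and 28.0) were within 2-fold.

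Genes of lipid handling differed in both directions. *Fabp4*, a fatty acid carrier, had 343 in deficient Ly6Clo and 13.8 in control Ly6Chi monocytes. *Abcg1*, a cholesterol exporter, had 743 and 79.0, against 227 in control Ly6Clo monocytes. *Apoe* had 18305 and 7275. The receptors *Scarb1*, which binds HDL (9.09 and 58.8), and *Lrp1*, which clears lipoprotein remnants (4.70 and 21.5), were lower. Over the list 6 of 20 expressed members were higher and 7 lower.

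Of the Bcl2 family, 4 of 10 expressed members were higher and 1 was lower. The prosurvival genes *Bcl2a1a*, *Bcl2a1b* and *Bcl2a1d* had 442, 878 and 916 in deficient Ly6Clo and 27.6, 43.9 and 47.8 in control Ly6Chi monocytes. These copies are near-identical, so how reads were divided among them is uncertain. *Bcl2* itself had 14.8 and 4.18, with 31.7 in control Ly6Clo monocytes. *Bad*, which promotes cell death, was lower (6.62 and 58.5), and its effector relative *Bax* was at 283 and 282, a log2 ratio of 0.00 that was 1.01 after subtraction of the GC trend.

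Genes of adhesion were lower for 7 of 19 expressed members and higher for 3. *Itgb7*, an integrin beta chain, had 41.1 in deficient Ly6Clo and 197 in control Ly6Chi monocytes, and *Icam1*, a ligand of LFA-1, had 14.5 and 53.8. *F11r*, which encodes the junctional adhesion molecule JAM-A, had 0.272 and 11.1. *Pecam1*, an adhesion molecule of endothelium and leukocytes, was higher with 55.1 and 4.26, level with the 54.1 of control Ly6Clo monocytes. *Itgb2*, the beta chain shared by LFA-1 and CD11b, was within 2-fold (674 and 616).

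The actin-binding proteins, a family to which *Capg* belongs, were within 2-fold for 26 of 36 expressed members, with 9 lower and 1 higher. After subtraction of the GC trend 4 were lower and 5 higher, so that the direction of the list did not hold. *Gsn*, the filament-severing protein gelsolin and a relative of *Capg*, had 14.2 in deficient Ly6Clo and 105 in control Ly6Chi monocytes, with 35.3 in control Ly6Clo monocytes. *Coro1a*, a coronin, had 352 and 1048 (log2 ratio -1.57, and -0.78 after subtraction of the GC trend). *Lcp1*, which bundles filaments, had 588 and 605, and *Arpc2*, a subunit of the nucleating Arp2/3 complex, had 1592 and 1459. *Tpm3*, a tropomyosin, was the higher member with 1412 and 645 (log2 ratio 1.13, and 0.81 in TPM). In control Ly6Clo monocytes *Coro1a* was at 1010.1, *Lcp1* at 927 and *Arpc2* at 1453, so that the wide gap of *Capg* between the control subsets was not seen in these 3 relatives by function.

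Receptors for colony-stimulating factors were lower for 3 of 5 expressed members (2 after subtraction of the GC trend) and higher for none. Among the lower ones *Flt3* (0.280 in deficient Ly6Clo and 12.6 in control Ly6Chi monocytes) passed the filter through the control Ly6Chi library alone. The list median was -1.68, and -0.95 where both libraries had to reach an FPKM of 1. *Csf3r*, the receptor for G-CSF, had 6.50 in deficient Ly6Clo and 50.7 in control Ly6Chi monocytes, and *Csf2ra*, the alpha chain of the GM-CSF receptor, had 117 and 377 (log2 ratio -1.68, and -0.90 after subtraction of the GC trend). *Csf2rb*, its signalling chain, had 57.0 and 41.0. Fc receptors differed among themselves, 3 of 6 higher and 1 lower. The lower one, *Fcgr1*, the high-affinity receptor for IgG, had 27.1 and 61.7, a log2 ratio of -1.16 that was within 2-fold after subtraction of the GC trend (-0.92), and *Fcgr2b*, the inhibitory one, had 372 and 382. The common gamma chain *Fcer1g* had 12099 and 5249.6 (1.20, and 0.89 in TPM).

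Cell cycle genes were mostly low on both sides, 10 of 32 being expressed. *Mki67*, a marker of proliferating cells, had 0.492 in deficient Ly6Clo and 0.383 in control Ly6Chi monocytes. Of the 10 expressed genes 6 were higher at 2-fold and 1 was lower. *Ccnd2*, a D-type cyclin, had 25.4 and 1.43, with 20.0 in control Ly6Clo monocytes, whereas *Ccnd3*, another, had 27.9 and 201. The inhibitors *Cdkn1b* (341 and 82.8) and *Cdkn1a* (111 and 45.1, log2 ratio 1.29 and 0.98 in TPM) were among the higher ones. The others were *Stmn1* (19.2 and 2.53) and the DNA replication genes *Mcm6* (20.7 and 3.91) and *Mcm4* (25.4 and 10.9). For *Mcm4* the log2 ratio was 1.15, and it was 0.91 after subtraction of the GC trend and 0.86 in TPM. The higher genes thus included a cyclin and replication genes as well as inhibitors of the cycle.

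**Figure D5:**
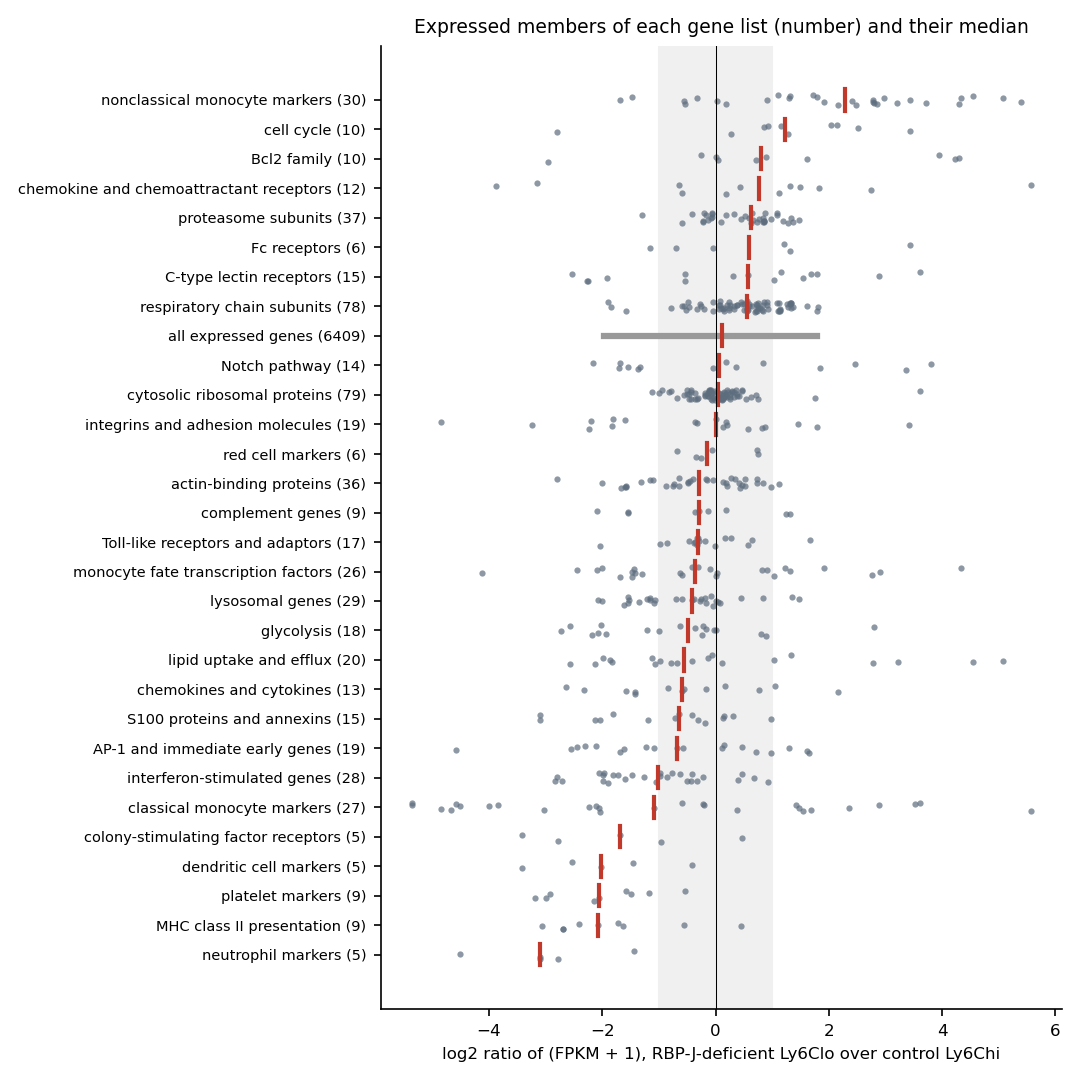
Log2 ratio of (FPKM + 1), RBP-J-deficient Ly6Clo over control Ly6Chi monocytes (horizontal axis), for the expressed members of each gene list with 5 or more (number in brackets). Grey points are genes, red bars are medians, the grey bar of all expressed genes spans the middle 90% and the shaded band is 2-fold either way. Nonclassical monocyte markers have the highest median, 2.28, and neutrophil markers the lowest, -3.09.

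The genes with the largest ratios past 5.7 or 0.2 were taken from the 67 higher and 97 lower genes that passed under FPKM, TPM and GC subtraction. Beside those already described, the higher ones included *Slamf9* (306 in deficient Ly6Clo and 7.77 in control Ly6Chi monocytes), a receptor of the SLAM family, *Cd83* (348 and 13.5), a maturation marker of dendritic cells, and *Insl6* (29.4 and 0.910), a relaxin-like peptide. *Ear1* and *Ear10*, ribonucleases of a multigene family whose reads may be shared, had log2 ratios of 4.26 and 4.03. The lower ones included *Abtb1* (1.46 and 46.7), *Dyrk3*, a protein kinase (0.186 and 18.7), *Amdhd2*, an enzyme of amino sugar breakdown (0.578 and 24.4), and *Gas7*, an actin-bundling protein (0.631 and 24.4). *H2-L*, an MHC class I gene with close relatives, had 10.9 and 205. No GC content was found for *H2-L* or *Erdr1*, which kept their ratio in that step.

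Markers of other cell types were read beside these results. T cell markers were near 0, with a summed FPKM of 0.124 in deficient Ly6Clo and 1.08 in control Ly6Chi monocytes over 10 genes, 7 of them at 0 in the former and 2 in the latter. The 12 NK cell markers summed to 4.34 and 12.1, 9 and 5 of them at 0. Platelet markers summed to 150.4 and 437 over 11 genes, and 8 of 9 expressed ones were lower at 2-fold, the highest of them *Pf4* (51.4 and 156). Several of the lower ones, such as *Tubb1* (2.67 and 32.5), passed the filter through the control Ly6Chi library alone. The list median was -2.06, and -1.58 where both libraries had to reach an FPKM of 1. The platelet sums were 147 in control Ly6Clo and 374 in RBP-J-deficient Ly6Chi monocytes, so that the platelet signal went with the subset. *F13a1*, a gene that platelets also hold, had 10.7 in deficient Ly6Clo and 0.611 in control Ly6Clo monocytes, whose platelet sums were alike. The part of platelets in the results was not tested.

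The 15 neutrophil markers summed to 181 in deficient Ly6Clo and 1589 in control Ly6Chi monocytes, with 275 and 1238 in control Ly6Clo and RBP-J-deficient Ly6Chi monocytes. Most of the sum is *S100a8*, which Ly6Chi monocytes also express, and 4 of the 15 were at 0 in each library of the pair. The 13 dendritic cell markers summed to 262 and 574, with *Flt3*, the receptor of dendritic cell precursors, at 0.280 and 12.6. B cell markers went the other way, 193 and 81.6 over 11 genes with 2 at 0 in each, led by *Cd79b* (100.2 and 23.7). Their sums were 175 in control Ly6Clo and 103 in RBP-J-deficient Ly6Chi monocytes, so both Ly6Clo libraries lay above both Ly6Chi libraries. The 9 red cell markers summed to 1119 and 1354. The part of these cells in the results was not tested.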

How the data were processed

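Sorted blood monocytes gave 4 RNA-seq libraries, 1 per genotype and subset, sequenced as read pairs. The authors deposited FPKM values for each of 6 pairs of libraries in the layout of Cuffdiff, and the submitters' processing notes name CASAVA 1.8, TopHat2 2.1.0, Cufflinks 2.2.1 and the build mm10. Columns of fold changes, p-values and q-values in the same table hold the authors' own comparisons and were not used. FPKM of the compared pair was taken from its 23997 rows, and 2 symbols on more than 1 row, damaged by conversion to dates, were summed and not named. The log2 ratio used a pseudocount of 1 and a mean FPKM of at least 5. A count test could not be run on these values, and read depth is unknown. The GC trend was a lowess fit (fraction 0.3, 3 iterations) on the longest GENCODE M21 transcript, found for 99.1% of genes. Procedures were tested on simulated data. Python 3.11.15, numpy 2.4.6, pandas 2.3.3 and statsmodels 0.14.6 were used.

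Named genes were the markers, the 15 largest ratios each way that passed under FPKM, TPM and GC subtraction with small RNAs left out, and up to 6 members each way and 4 near 0 of each of 33 gene lists. Some members further down those orders, genes of the sets from the other libraries, and those apart from every library were named after their values were seen. The comparison, its lists and its rules were chosen with earlier results of these data known. Alternatives were other pseudocounts, filters, TPM, median centring and the GC trend. Coordinates are 1-based on GRCm38. Some items are not reported here.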

Additional observations from a re-analysis of the deposited data

How the results depend on the processing

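No paired analysis was possible because each group holds 1 library, and for the same reason no library could be left out. Counts were read as kept within 1.5 times, and ratios and medians as kept on the same side of 2-fold. Among the counts, the overall median, both subset sets, and the medians of the classical and nonclassical lists, these values moved. With a pseudocount of 5 the genes past 5.7 and 0.2 were 66 and 65. In TPM, a shift of -0.32 in the log2 ratio before the pseudocount, 310 genes were at 0.2 or less, 754 were higher at 2-fold and *Capg* was at -1.05. After subtraction of the GC trend 120 genes were at 0.2 or less, the Ly6Clo-type median was 1.41 and *Ccr2* was at -1.05. That median was 1.10 with a pseudocount of 0.1. With a minimum mean FPKM of 1, or none, 1683 or 1804 genes were lower at 2-fold, since more low genes entered. The classical median was -0.84 with a minimum of 10 and -0.75 with an FPKM of at least 1 in both libraries. Of the values of single named genes under alternatives, 1415 stayed and 61 crossed the 2-fold line, 28 of them after GC subtraction and 17 in TPM. Of the gene list medians 304 stayed and 15 crossed. No value at 2-fold or more reversed. Depth is unknown, so no limit from counting can be given.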

Other observations

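Glycolytic genes were lower for 8 of 18 expressed members, with a median log2 ratio of -0.49 (6 lower and a median of -0.16 after subtraction of the GC trend). *Pkm*, a pyruvate kinase, had 159.5 in RBP-J-deficient Ly6Clo and 674 in control Ly6Chi monocytes, and *Slc2a1*, a glucose transporter, had 3.01 and 22.9, whereas *Gapdh* was at 146 and 148 and *Eno3*, an enolase, was higher (410.2 and 57.9). Lysosomal genes were lower for 12 of 29 expressed members and higher for 2, but lower for 6 and higher for 3 after subtraction of the GC trend. *Hexa*, a subunit of hexosaminidase, had 71.5 and 303, and *Gm2a*, its activator, was higher with 1854 and 668. Respiratory chain subunits were higher for 18 of 78 expressed members, or 23.1% (27 members after subtraction of the GC trend), and proteasome subunits for 7 of 37, or 18.9% (11 members after that subtraction), against 17.7% of all genes. Cytosolic ribosomal proteins were within 2-fold for 76 of 79.

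Of 17 expressed Toll-like receptors and adaptors 15 were within 2-fold, while the adaptor *Myd88* had 50.8 in deficient Ly6Clo and 211 in control Ly6Chi monocytes and the kinase *Irak4* had 109 and 33.3. Of C-type lectin receptors 7 of 15 were higher and 4 lower (5 and 5 after subtraction of the GC trend). *Clec4e*, also called Mincle, had 313 and 41.2, and *Cd209a*, a relative of DC-SIGN, had 30.6 and 183. *Il1b*, an inflammatory cytokine, had 329 and 72.6. The chemokine *Ccl2*, the ligand of CCR2, had 1.94 and 17.2, with 0.421 in control Ly6Clo monocytes.

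Among the genes at least 2-fold above each other library in RBP-J-deficient Ly6Clo monocytes, *Marf1* stood farthest from the nearest library, with 50.7 against 2.90, 5.50 and 3.68 in control Ly6Chi, control Ly6Clo and RBP-J-deficient Ly6Chi monocytes. *F11r* stood farthest below, with 0.272 against 11.1, 8.59 and 8.11. Both were chosen after their values were seen.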
